A study of Mus musculus with 6 samples.

Results

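The interferon regulatory factor (IRF) family was examined in osteoclast precursors (OCPs) with and without the long noncoding RNA lincRNA-EPS. The genes taken were 9 rows of the deposited table by gene name: *Irf1*, *Irf2*, *Irf3*, *Irf4*, *Irf5*, *Irf7*, *Irf8*, *Irf9* and *Irf2bp2*. These are 9 of 57180 genes in the table, and all 9 were among the 13428 genes with enough counts to be tested. The family was chosen with the knockout and wildtype levels of these same libraries known. Each level and difference of a member is therefore a description, and no p-value of a member is printed. Where members that pass a p-value limit are counted and named, the share of all genes stands beside them and nothing is read from the count. *Irf2bp1* and *Irf2bpl*, relatives of *Irf2bp2*, were not among the genes chosen and are given where they help to place it.

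IRFs are transcription factors that share a DNA-binding domain and recognise the interferon-stimulated response element (ISRE). IRF3, IRF5 and IRF7 are activated by innate sensors of nucleic acids and microbial products, and IRF7 is itself an interferon-stimulated gene that amplifies type I interferon production. IRF9 is the DNA-binding part of the ISGF3 complex, which carries the interferon signal to the ISRE. IRF8 pairs with PU.1 in macrophages and is known to restrain osteoclast formation, and its level declines when precursors meet RANKL. IRF2BP2 is a corepressor that was named for its binding to IRF2.

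The data were 6 RNA libraries, 3 of wildtype (WT) cultures and 3 of cultures that lacked lincRNA-EPS (KO). The cells came from mouse bone marrow, and the study used C57BL/6 mice of both genotypes. All cultures had M-CSF, a macrophage growth factor, at 40 ng/ml for 24 h and then RANKL, the cytokine that starts osteoclast differentiation, at 40 ng/ml for 48 h. No culture without RANKL and no culture with LPS was analysed here, so nothing in these libraries shows how a gene responded to RANKL itself. The age of the mice behind these cultures, how the deletion was made and whether cells of several animals were pooled are not given in the sources used here. The labels do not say that the cultures came from separate animals. The study's methods describe replicates in general as individual mice or independent cultures, so p-values measure the spread between these cultures, which may share an animal. LincRNA-EPS, listed as *Ttc39aos1*, had 20, 37 and 41 counts in the WT libraries and 0 counts in each KO library, as the labels say.

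The libraries held between 17757351 and 19998611 estimated counts. Levels are in CPM, counts scaled to library size, after TMM scaling, and 3 counts, the smallest level taken as measured, correspond to 0.150 to 0.173 CPM. Macrophage markers (*Csf1r*, *Adgre1*, *Cd68*, *Itgam*, *Lyz2*, *Fcgr1*, *Mertk* and *Cd14*) and osteoclast precursor markers (*Ctsk*, *Acp5*, *Dcstamp*, *Nfatc1*, *Tnfrsf11a*, *Oscar*, *Mmp9* and *Atp6v0d2*) were present in every library. Across 13176 genes, the difference between KO and WT followed transcript GC content (Pearson r = -0.523, across genes, which are not independent replicates), and so did the difference between KO replicates 3 and 1 (r = -0.522) and that between WT replicates 2 and 1 (r = 0.426). Values after a correction of each library for this trend are therefore given for the 9 genes and for the counts and medians of the pathway lists, and for some of the other genes named. A ribosomal RNA gene, *Rn18s-rs5*, took 2.71% of the counts in KO replicate 2 and between 0.202% and 0.575% elsewhere.

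The order of the family by abundance was the same in both genotypes. Divided by the length of the longest transcript, the highest level in WT was that of *Irf5*, with 69.7 ± 8.04 CPM per kb (SD, n = 3). *Irf2bp2* followed with 51.4 ± 5.52 CPM per kb, *Irf8* with 24.2 ± 2.16 and *Irf3* with 16.7 ± 0.975. *Irf1* (12.3 ± 2.03 CPM per kb), *Irf2* (9.63 ± 0.625) and *Irf9* (8.15 ± 0.683) stood in the middle. *Irf7* (5.26 ± 0.221 CPM per kb) and *Irf4* (0.550 ± 0.0524) were the least abundant. No 2 neighbours in this order overlapped between WT libraries. In KO the only neighbours with overlapping libraries were *Irf8* (17.8 ± 2.67 CPM per kb) and *Irf3* (15.4 ± 0.748). *Irf7*, at 2.52 ± 0.213 CPM per kb, lay further below *Irf9* in KO (6.48 ± 0.479 CPM per kb, 2.57 times the level of *Irf7*). With the union of exons as length, *Irf9* (5.85 CPM per kb) and *Irf2* (5.16) changed places in WT, and *Irf3* (9.08) and *Irf8* (8.73) did so in KO.

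**Figure D1:**
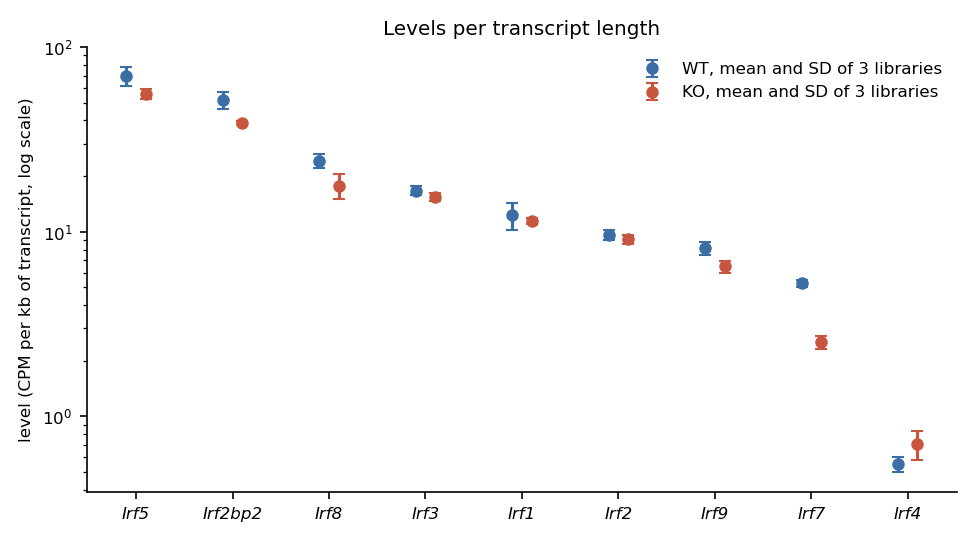
Level of the 9 genes in CPM per kb of the longest transcript, on a log axis, as mean and SD of 3 WT and 3 KO libraries. The genes run from *Irf5* at 69.7 CPM per kb down to *Irf4* at 0.550 CPM per kb in WT, and the widest gap between the genotypes is at *Irf7*.

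The sequences before the transcription start of the genes the description turns on are shown to let the reader see which of them carry the letters that interferon-activated factors bind. They are RefSeq promoters of GRCm38.p6, which held an entry for all 9 genes, printed 5′ to 3′ on the strand of the gene and ended before the first annotated exon base. The 250 bases before each start were searched on both strands for GAAANNGAAA, the core of the ISRE, and for TTCNNNGAA, the core of the GAS element of interferon-gamma signalling. Matches are in capitals.
*Irf7* (chr7:141266482-141266674, minus strand): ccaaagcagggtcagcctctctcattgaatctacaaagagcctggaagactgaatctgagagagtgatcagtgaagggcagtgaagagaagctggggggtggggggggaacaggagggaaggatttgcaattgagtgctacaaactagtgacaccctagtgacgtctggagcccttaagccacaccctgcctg
*Irf8* (chr8:120736108-120736357, plus strand): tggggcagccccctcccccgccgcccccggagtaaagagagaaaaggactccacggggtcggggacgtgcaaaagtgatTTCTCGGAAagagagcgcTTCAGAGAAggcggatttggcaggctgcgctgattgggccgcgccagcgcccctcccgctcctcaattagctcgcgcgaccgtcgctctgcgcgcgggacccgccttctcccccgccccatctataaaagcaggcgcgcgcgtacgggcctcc
*Irf1* (chr11:53769764-53770013, plus strand): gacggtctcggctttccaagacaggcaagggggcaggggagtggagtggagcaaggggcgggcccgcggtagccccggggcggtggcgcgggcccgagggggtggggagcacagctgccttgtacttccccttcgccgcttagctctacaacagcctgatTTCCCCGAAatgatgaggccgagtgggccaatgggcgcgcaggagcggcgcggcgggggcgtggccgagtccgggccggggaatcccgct
*Irf2* (chr8:46739495-46739731, plus strand): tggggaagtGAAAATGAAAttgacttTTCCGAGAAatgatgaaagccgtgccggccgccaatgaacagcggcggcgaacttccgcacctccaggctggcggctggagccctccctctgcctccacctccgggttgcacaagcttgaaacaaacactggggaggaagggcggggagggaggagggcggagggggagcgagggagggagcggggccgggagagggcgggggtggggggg

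The GAS core stood in the promoters of 3 of the 9 genes. *Irf8* held 2 matches, TTCTCGGAA at 171 to 163 bases and TTCAGAGAA at 153 to 145 bases before the start. *Irf1* held TTCCCCGAA at 90 to 82 bases before the start. *Irf2* held TTCCGAGAA at 224 to 216 bases, next to the only ISRE core in the family, GAAAATGAAA at 241 to 232 bases. The GAS core is found in 7.02% of all 32851 promoters of this length (at 8.13% of 27025 genes) and the ISRE core in 2.98% (at 3.46% of genes). Neither set of letters was found in the 250 bases before the start of *Irf3*, *Irf4*, *Irf5*, *Irf7*, *Irf9* or *Irf2bp2*. These windows are counted from the RefSeq start, and the gene annotation places some of their bases inside the gene, all of them for *Irf9* and a part for *Irf2*, *Irf4* and *Irf7*, so for *Irf9* no sequence upstream of the annotated gene was searched. *Irf1*, *Irf8* and *Irf9* have 2 promoter entries each, and the second of *Irf1* and of *Irf8* lies wholly inside the gene and held neither core. A match is a run of letters and was not tested for binding, and its absence says nothing about a factor outside this window.

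*Irf7* had the largest difference in the family, its mean in KO being 47.9% of that in WT. *Irf7* (ENSMUSG00000025498) lies at chr7:141262706-141266481 on the minus strand of GRCm38. Its level was 16.4, 16.8 and 17.8 CPM in WT replicates 1, 2 and 3 and 7.80, 8.96 and 7.73 CPM in KO replicates 1, 2 and 3. The WT libraries lay close together, the KO libraries did too, and the groups were far apart. The mean was 17.0 ± 0.717 CPM for WT against 8.16 ± 0.690 CPM for KO (SD, n = 3 in each group). The log2 fold change was -1.06 (standard error 0.12). This put *Irf7* at rank 91 from the lowest log2 fold change among the 13428 genes. With the GC correction the log2 fold change was -0.87 (standard error 0.12), the groups still did not overlap, and the rank was 133. Leaving out each library in turn gave log2 fold changes from -1.13 to -1.02.

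The other 2 factors that act directly below the sensors differed less. *Irf3* (ENSMUSG00000003184, chr7:44997648-45002848, plus strand) encodes the factor that is present before infection and starts *Ifnb1* transcription. Its level was 31.9, 35.8 and 34.0 CPM in the WT libraries and 32.7, 31.4 and 29.6 CPM in the KO libraries. The groups overlapped, and the log2 fold change of -0.12 (standard error 0.10) turned to 0.12 (standard error 0.09) with the GC correction. *Irf5* (ENSMUSG00000029771, chr6:29526625-29541871, plus strand) encodes a factor that drives inflammatory cytokine genes below Toll-like receptors. Its level was 144, 177 and 147 CPM in WT and 125, 132 and 117 CPM in KO. The KO libraries were all lower, the log2 fold change was -0.33 (standard error 0.11), and after the GC correction it was -0.12 (standard error 0.08) with overlapping groups.

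The balance of *Irf7* and *Irf3* within a library does not depend on the scaling between libraries. The CPM ratio of *Irf7* to *Irf3* was 0.516, 0.470 and 0.524 in the WT libraries and 0.239, 0.285 and 0.261 in the KO libraries. The transcripts differ by 1.27 percentage points in GC content. The ratio of *Irf7* to *Irf5*, whose transcripts differ by 0.288 percentage points in GC content, was 0.110 ± 0.0133 in WT against 0.0656 ± 0.00262 in KO (SD, n = 3 in each group). Each of these ratios was lower in every KO library than in any WT library. Because the ratios share the levels of *Irf7* that chose the family, they are no separate evidence about it.

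*Irf9*, the DNA-binding subunit of ISGF3, was lower in all 3 KO libraries. *Irf9* (ENSMUSG00000002325, chr14:55603571-55610030, plus strand) had 29.3, 34.4 and 30.8 CPM in WT and 24.1, 27.2 and 23.9 CPM in KO. The highest KO library was just under the lowest WT library. The log2 fold change was -0.33 (standard error 0.11), and -0.29 (standard error 0.09) with the GC correction, where the groups also stayed apart.

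*Irf1* and *Irf2*, an activator and its antagonist at shared sites, overlapped between genotypes. *Irf1* (ENSMUSG00000018899, chr11:53770014-53778374, plus strand) had 24.7, 31.1 and 22.9 CPM in WT and 24.4, 25.2 and 23.3 CPM in KO. WT replicate 2 stood above the 5 other libraries, which lay between 22.9 and 25.2 CPM. The log2 fold change was -0.11 (standard error 0.13), 0.03 without WT replicate 2, and 0.01 with the GC correction. *Irf2* (ENSMUSG00000031627, chr8:46739732-46847458, plus strand) had 35.4, 40.1 and 39.1 CPM in WT and 35.0, 34.7 and 38.1 CPM in KO. Its transcript has the lowest GC content of the family, 46.4%. The log2 fold change of -0.09 (standard error 0.10) became -0.18 (standard error 0.08) with the GC correction, and the corrected groups did not overlap.

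**Figure D2:**
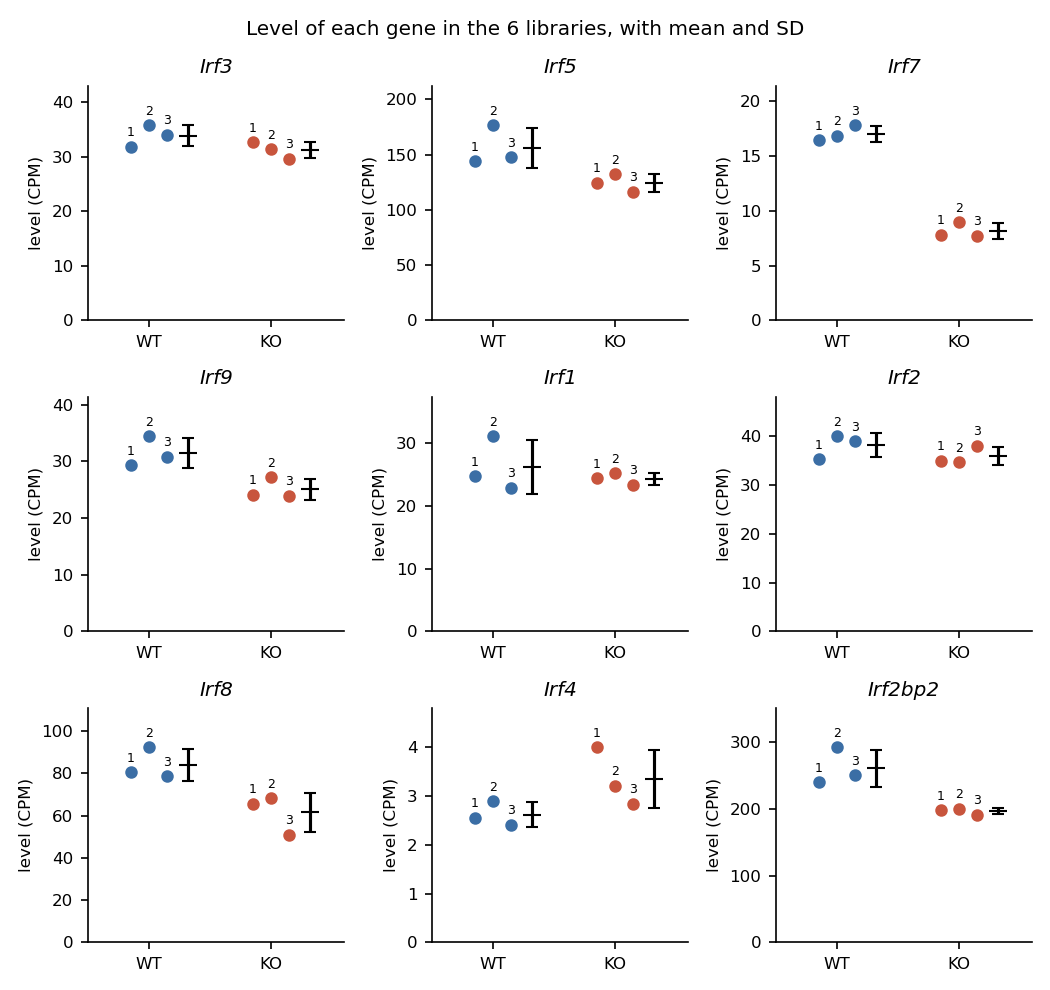
Level of each gene in CPM in the 3 WT and 3 KO libraries (points, with the replicate number above each), with the mean and SD beside them and axes that start at 0. All KO libraries lie below all WT libraries for *Irf5*, *Irf7*, *Irf9*, *Irf8* and *Irf2bp2*, and the groups overlap for *Irf3*, *Irf1*, *Irf2* and *Irf4*.

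*Irf8* and *Irf4*, the factors that pair with PU.1, differed in opposite directions, *Irf4* with overlapping groups. *Irf8* (ENSMUSG00000041515, chr8:120736358-120756694, plus strand) had 80.6, 92.4 and 78.5 CPM in WT and 65.7, 68.1 and 51.0 CPM in KO. All KO libraries were lower, and KO replicate 3 was the lowest of all. The mean was 83.8 ± 7.48 CPM for WT against 61.6 ± 9.25 CPM for KO (SD, n = 3 in each group). The log2 fold change was -0.44 (standard error 0.13), -0.37 (standard error 0.09) with the GC correction and -0.32 without KO replicate 3. *Irf4* (ENSMUSG00000021356, chr13:30749226-30766976, plus strand), known from lymphocytes and from alternatively activated macrophages, had between 46 and 77 counts per library. Its level was 2.55, 2.90 and 2.41 CPM in WT and 4.01, 3.22 and 2.85 CPM in KO. The highest WT library lay above the lowest KO library, and the log2 fold change was 0.36 (standard error 0.20), 0.30 (standard error 0.19) with the GC correction, or 0.21 without KO replicate 1. The CPM ratio of *Irf8* to *Irf4* was 31.5, 31.9 and 32.5 in the WT libraries and 16.4, 21.2 and 17.9 in the KO libraries. These transcripts differ by 4.09 percentage points in GC content, and the ratio was not corrected for it. It shares the levels that chose the family and is no separate evidence.

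The gene of the corepressor IRF2BP2 was also lower in KO. *Irf2bp2* (ENSMUSG00000051495, chr8:126588296-126593986, minus strand) had 240, 293 and 251 CPM in WT and 198, 200 and 191 CPM in KO. The groups did not overlap. The log2 fold change of -0.41 (standard error 0.10) was -0.24 (standard error 0.08) with the GC correction. Its relatives have transcripts richer in GC, and their differences were larger before the correction. *Irf2bp1* (63.6% GC) had 28.0, 37.8 and 30.4 CPM in WT and 22.0, 21.8 and 11.0 CPM in KO, with a log2 fold change of -0.81 ± 0.25 (standard error) and an adjusted p of 0.147 by edgeR's quasi-likelihood test. *Irf2bpl* (60.0% GC) had 62.4, 88.2 and 61.6 CPM in WT and 48.6, 43.6 and 35.1 CPM in KO, with a log2 fold change of -0.74 ± 0.17 (standard error) and the same adjusted p. DESeq2 called *Irf2bpl* (adjusted p = 0.0071) and not *Irf2bp1* (adjusted p = 0.0319). With the GC correction the log2 fold changes were -0.31 and -0.36 (standard errors 0.09 each), so the 3 corepressor genes then lay close to each other.

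**Figure D3:**
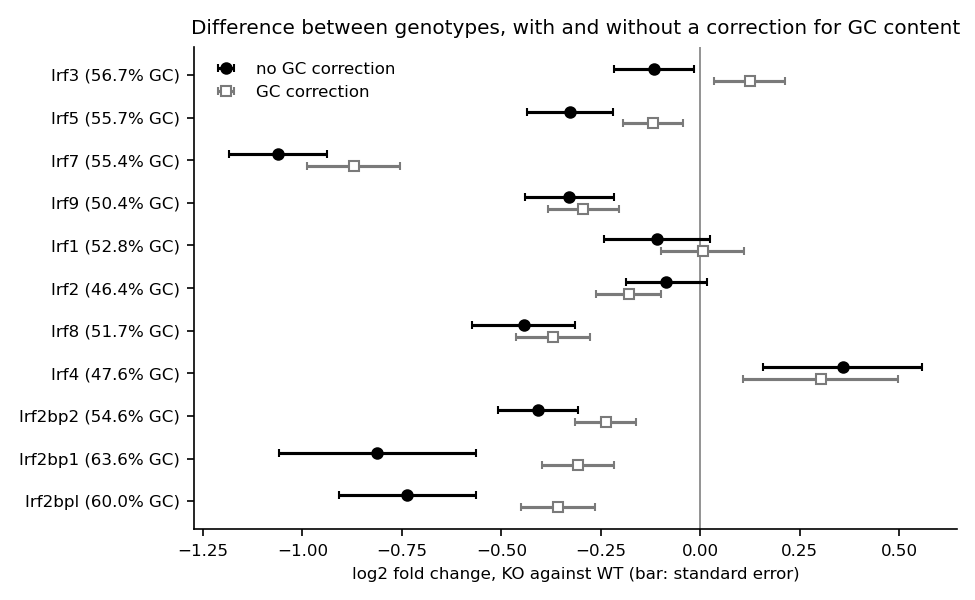
Log2 fold change between KO and WT with its standard error, without (filled circles) and with (open squares) the correction for GC content, for the 9 genes and for *Irf2bp1* and *Irf2bpl*, with the GC content of each transcript. *Irf7* stays the lowest in both at -1.06 and -0.87, *Irf3* moves from -0.12 to 0.12, and *Irf2bp1* moves from -0.81 to -0.31.

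As a group, 8 of the 9 genes had a lower mean in KO and *Irf4* had a higher one. With the GC correction the log2 fold change was below 0 for 6 genes and above 0 for 3, *Irf1* (0.0057), *Irf3* (0.12) and *Irf4* (0.30). A gene was called in edgeR's quasi-likelihood test when its adjusted p was below 0.01 and its level differed by more than 1.3-fold, and 0 of the 9 genes were called, as against 0.00745% of all genes tested. At an unadjusted p-value under 0.05, 5 of the 9 (*Irf5*, *Irf7*, *Irf8*, *Irf9* and *Irf2bp2*) were lower, beside 13.2% of all genes, and 0 were higher, beside 13.0%. The same 5 genes had every KO library below every WT library, beside 18.9% of all genes, and 0 had every KO library above every WT library, beside 16.8%. With the GC correction, *Irf7*, *Irf8*, *Irf9* and *Irf2bp2* were lower at an unadjusted p-value under 0.05 (13.8% of all genes) and 0 were higher (12.0%). In corrected values *Irf2*, *Irf7*, *Irf8*, *Irf9* and *Irf2bp2* had all KO libraries below all WT libraries (17.4% of all genes). With DESeq2, *Irf7* was called among the 8 genes that have an adjusted p-value, beside 1.22% of all genes. The genes were picked from this same contrast, so nothing is read from these counts. With 3 libraries a group the smallest p that exact permutation allows is 0.1. The median log2 fold change of all genes tested was 0.01, and 49.0% of them were negative. In bulk RNA, fewer cells of a type and less RNA per cell cannot be told apart.

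Several of these genes share exonic bases with a neighbour. The library kit keeps strand, but the strand setting of the counting is not given in the sources used here. *Irf7* shares 45 bases with *Phrf1* on the opposite strand (log2 fold change -0.45, standard error 0.15), and *Irf9* shares 123 bases with *Rnf31* on the same strand (-0.45, standard error 0.19). *Irf5* shares 411 bases with *Tnpo3* on the opposite strand, whose log2 fold change was 0.03 (standard error 0.09). *Irf3* shares 88 bases with *Bcl2l12* and *Irf1* shares 135 bases with *Gm17334*, each on the opposite strand. *Irf2bp2* shares 1039 bases with the antisense gene *Gm26759*, which had 0 counts in every library. How far reads of these neighbours enter the values was not tested.

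The genes that stand above and below IRFs were then read from lists that were written with earlier results of these data known. Interferon genes themselves, the ligands of the pathway, were at or near 0. Of 14 ligand genes, 12 had 0 counts in all 6 libraries, namely *Ifnb1*, *Ifng*, 7 genes of the *Ifna* cluster, *Ifne*, *Ifnl2* and *Ifnl3*. *Ifnz* had 2 counts in WT replicate 3 and *Ifnk* had 1 count in KO replicate 2, and neither had any elsewhere. A count of 0 allows up to 3 counts, 0.150 to 0.173 CPM in these libraries, and the near-identical *Ifna* copies can split reads between them. None of the ligand genes was tested.

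Of 26 sensors, adaptors and kinases upstream of IRF3, IRF5 and IRF7, 0 passed the limits. At an unadjusted p-value under 0.05, 6 were lower and 2 were higher in KO, where 13.2% and 13.0% of all genes were. After the correction 12 were lower and 1 was higher, where 13.8% and 12.0% of all genes were. The median log2 fold change of the list was -0.15, and -0.17 with the correction, beside 0.01 for all genes without it. The cytosolic RNA helicase gene *Dhx58* (17.4 ± 1.36 and 12.7 ± 0.803 CPM in WT and KO) had a log2 fold change of -0.45, the nucleic acid sensor gene *Zbp1* (2.25 ± 0.138 and 1.22 ± 0.0759 CPM) one of -0.87, and the lysosomal transporter gene *Slc15a4* (63.7 ± 1.94 and 44.5 ± 7.65 CPM) one of -0.52, each with an adjusted p of 0.147 in edgeR's quasi-likelihood test. Each of the 3 was lower in all KO libraries, and with the GC correction the log2 fold changes were -0.30, -0.82 and -0.35. *Slc15a4* encodes a transporter that IRF5 activation by endosomal receptors depends on.

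In the list of interferon receptors, JAKs, STATs and their feedback inhibitors, 0 of 12 genes passed the limits, 5 were lower at an unadjusted p-value under 0.05 and 0 were higher, beside 13.2% and 13.0% of all genes. Corrected for GC content, 6 were lower and 0 higher, beside 13.8% and 12.0%. The median log2 fold change was -0.19, and -0.22 with the correction. *Stat2*, the partner of IRF9 in ISGF3, had 34.1 ± 2.22 CPM in WT and 24.9 ± 3.03 CPM in KO and a log2 fold change of -0.46 (adjusted p = 0.147 by edgeR's quasi-likelihood test). The feedback inhibitor genes *Usp18* and *Socs3* had log2 fold changes of -0.73 and -0.56 (adjusted p = 0.147 each), and that of *Socs3* was -0.24 with the GC correction.

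The targets of ISGF3 held the only gene past the limits without the GC correction. Of 47 tested genes, 1 passed, 21 were lower and 0 were higher at an unadjusted p-value under 0.05, and 26 had all KO libraries below all WT libraries, where 13.2%, 13.0% and 18.9% of all genes did. With the GC correction 29 were lower and 0 higher, beside 13.8% and 12.0% of all genes. The median log2 fold change was -0.34, and -0.35 with the correction. *Dtx3l*, which encodes a ubiquitin ligase, fell from 25.1, 26.7 and 26.2 CPM in WT to 4.53, 6.09 and 5.75 CPM in KO. Its log2 fold change was -2.25 ± 0.14 (standard error), with an adjusted p of 0.0010 by edgeR's quasi-likelihood test. The call did not hold without WT replicate 2 (adjusted p = 0.0179), WT replicate 3 (0.0101) or KO replicate 2 (0.0157), where the log2 fold change was -2.23, -2.25 and -2.34. *Dtx3l* shares 458 exonic bases on the opposite strand with *Parp9*, whose log2 fold change was 0.04. *Parp14*, an ADP-ribosyltransferase gene, had 84.9 ± 2.75 CPM in WT and 49.7 ± 3.22 CPM in KO (log2 fold change -0.77, adjusted p = 0.0635), and *Oasl2*, an antiviral 2′-5′ oligoadenylate synthetase-like gene, had 18.9 ± 1.47 and 9.42 ± 1.13 CPM (log2 fold change -1.01, adjusted p = 0.0805). *Parp14* passed the limits too once the libraries were corrected for GC content, with a log2 fold change of -0.87 and an adjusted p of 0.0049. DESeq2 called 8 of the 37 genes with an adjusted p-value, *Oas1a*, *Oas1g*, *Oas2*, *Oas3*, *Oasl2*, *Ifi27l2a*, *Parp14* and *Dtx3l*, beside 1.22% of all genes. The ISRE core was found before the start of 37.1% of the 35 genes of this list that have a promoter entry, against 3.46% of all genes. It was also found for 58.8% of 17 IRF1 and interferon-gamma targets and for 50.0% of the 14 interferon ligand genes, and no ligand gene had enough counts to be tested. *Oas1a* and *Oas1g* are close copies whose reads the counting can split. Some genes, *Dhx58*, *Zbp1*, *Stat2* and *Usp18* among them, stand in this list and in a list above.

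Of 22 tested targets of IRF1 and interferon-gamma, 0 passed the limits, 2 were lower and 1 was higher at an unadjusted p-value under 0.05, both shares being below the 13.2% and 13.0% of all genes. After the correction 3 were lower and 1 was higher, beside 13.8% and 12.0% of all genes. The median log2 fold change was -0.14, and -0.11 with the correction. *Nlrc5*, the activator of MHC class I genes, had 28.6 ± 1.45 CPM in WT and 17.8 ± 2.89 CPM in KO (log2 fold change -0.68, adjusted p = 0.141 by edgeR's quasi-likelihood test), and was the 1 gene of the list that DESeq2 called (adjusted p = 0.0029). The guanylate-binding protein gene *Gbp2* had a log2 fold change of -0.47 (adjusted p = 0.164), and the inflammatory caspase gene *Casp4* had one of 0.41 (adjusted p = 0.147) that was 0.07 with the GC correction.

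**Figure D4:**
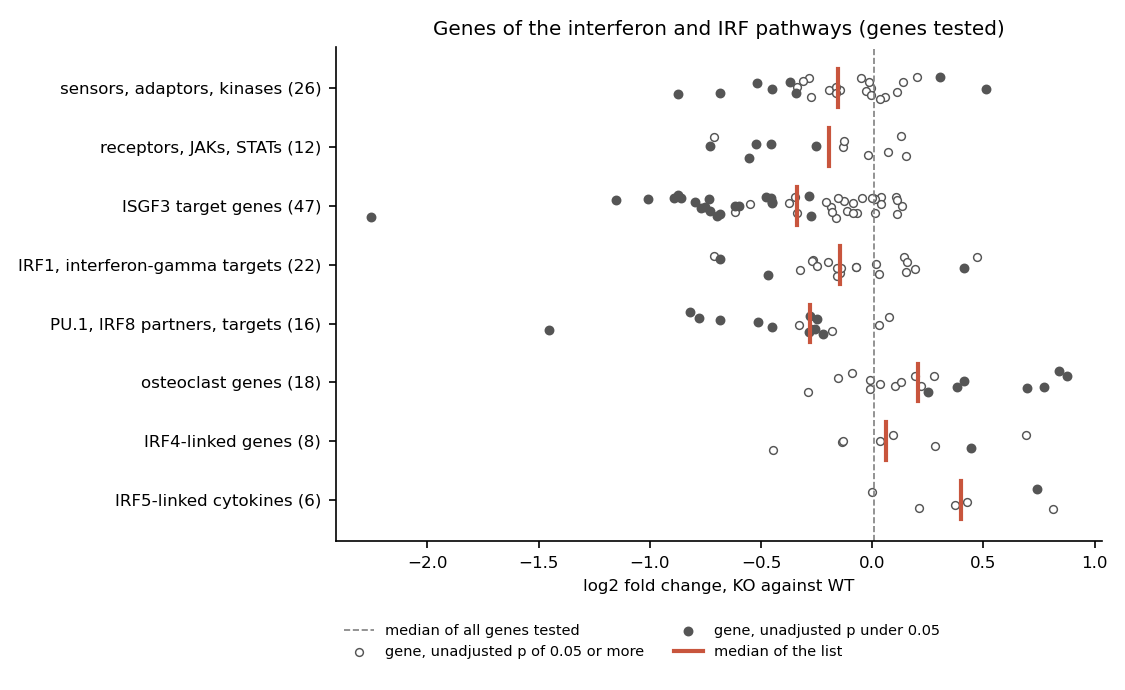
Log2 fold change between KO and WT of each tested gene in 8 lists (circles, filled where the unadjusted p-value is under 0.05), with the median of each list (red bar), the median of all genes tested (dashed line) and the number of genes tested in brackets. The circle farthest to the left is *Dtx3l* at -2.25, and the medians run from -0.34 for ISGF3 targets to 0.40 for IRF5-linked cytokines.

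Partners and targets of PU.1 and IRF8 in macrophages were compared next. Of 16 genes, 0 passed the limits, 11 were lower and 0 were higher at an unadjusted p-value under 0.05, and 12 had all KO libraries below all WT libraries, beside 13.2%, 13.0% and 18.9% over all genes. After the GC correction 10 were lower and 0 higher, beside 13.8% and 12.0%. The median log2 fold change was -0.28, and -0.29 with the GC correction. *Cebpa*, which encodes a myeloid transcription factor, had 79.8 ± 9.78 CPM in WT and 45.3 ± 8.95 CPM in KO (log2 fold change -0.82, adjusted p = 0.136 by edgeR's quasi-likelihood test), and -0.32 with the GC correction. The chemokine receptor gene *Cx3cr1* had a log2 fold change of -0.45 (adjusted p = 0.147). DESeq2 called 3 of the 16 genes of this list, *Cebpa* and *Slc11a1* among them, beside 1.22% of all genes.

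The list of osteoclast factors and targets held genes downstream of IRF8 or opposed to it, inhibitors such as the *Id* genes included, and more of them were higher than lower. Of 18 tested genes, 0 passed the limits, 7 were higher and 0 were lower at an unadjusted p-value under 0.05 (13.0% and 13.2% of all genes), and the median log2 fold change was 0.20. With the GC correction 8 were higher and 0 lower (12.0% and 13.8% of all genes), the median was 0.18, and 1 gene, *Dcstamp*, passed the limits. *Dcstamp*, needed for fusion of precursors, had 115 ± 5.60 CPM in WT and 206 ± 18.4 CPM in KO (log2 fold change 0.84, adjusted p = 0.0635 by edgeR's quasi-likelihood test), and a log2 fold change of 0.78 with an adjusted p of 0.0049 after the correction. *Ctsk*, the collagen-degrading protease gene, had 941 ± 58.4 and 1605 ± 150 CPM (log2 fold change 0.77, adjusted p = 0.102), and *Atp6v0d2*, a proton pump subunit gene, had a log2 fold change of 0.88 (adjusted p = 0.136), and 0.64 with the correction. *Nfatc1*, the factor that IRF8 is known to antagonise, had a log2 fold change of 0.03 (adjusted p = 0.872), or 0.17 after the correction, and overlapping groups, and was named after its value was seen. DESeq2 called *Oscar*, *Ctsk*, *Dcstamp* and *Atp6v0d2* of the 17 genes with an adjusted p-value, beside 1.22% of all genes.

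Genes linked to IRF4 and to IRF5 gave fewer values. Of 8 tested genes of IRF4-linked alternative activation, 0 passed the limits and 1 was higher at an unadjusted p-value under 0.05, *Chil3*, a chitinase-like gene with 196 ± 7.88 CPM in WT and 266 ± 30.8 CPM in KO (log2 fold change 0.44, adjusted p = 0.147 by edgeR's quasi-likelihood test, and 0.31 on the log2 scale with the GC correction). *Cd209a* and *Ccl22* had log2 fold changes of 0.69 and 0.28 (adjusted p = 0.197 and 0.233), with overlapping groups. *Retnla* and *Ccl17* had 0 counts in every library. Of 6 tested IRF5-linked cytokine genes, 0 passed the limits and 1 was higher at an unadjusted p-value under 0.05, *Il1b*, with 5.23 ± 0.106 CPM in WT and 8.74 ± 1.42 CPM in KO (log2 fold change 0.74, adjusted p = 0.147). *Il10* and *Tnf* had log2 fold changes of 0.81 and 0.21 (adjusted p = 0.209 and 0.389), or 0.66 and 0.31 after the correction, with overlapping groups. A count of 1 gene in lists of this size is near the 13.0% of all genes that were higher, and 13.2% were lower. The medians of the lists were 0.06 and 0.40, and 0.13 and 0.33 with the GC correction, under which 2 IRF4-linked genes were higher and 1 lower and 1 IRF5-linked gene was higher and 0 lower, beside 12.0% and 13.8% of all genes.

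The genes whose levels over the 6 libraries were most like those of *Irf7* and *Irf8* were sought among 10043 genes with a mean of at least 5 CPM. Likeness is the root mean square difference of centred log2 CPM, a description over 6 libraries that the genotypes divide. The 5 genes nearest to *Irf7* were *Oasl2* (0.065), *Oas3* (0.13), *Cdkn1c* (0.16), *Cmklr1* (0.18) and *Parp14* (0.18). *Oasl2*, *Oas3* and *Parp14* are interferon-stimulated genes, *Cdkn1c* encodes a cell cycle inhibitor and *Cmklr1* the chemerin receptor. The 5 genes nearest to *Irf8* were *Cnpy3* (0.020), *Hk3* (0.021), *Rftn1* (0.031), *Rhob* (0.031) and *Rab3d* (0.031), of which *Cnpy3* encodes a chaperone of Toll-like receptors and *Hk3* a hexokinase. Within the family the gene nearest to *Irf8* was *Irf5* (0.11). *Irf8* was the family gene nearest to *Irf7* (0.33), closely followed by *Irf2bp2* (0.34), and both lay further from *Irf7* than its 5 nearest genes. The measure is not scaled, so the size of the difference between genotypes enters it. In the group around *Irf8*, WT replicate 2 was the highest library and KO replicate 3 the lowest, the same libraries that stood apart along GC content, and the part of this trend in the likeness was not tested.

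**Figure D5:**
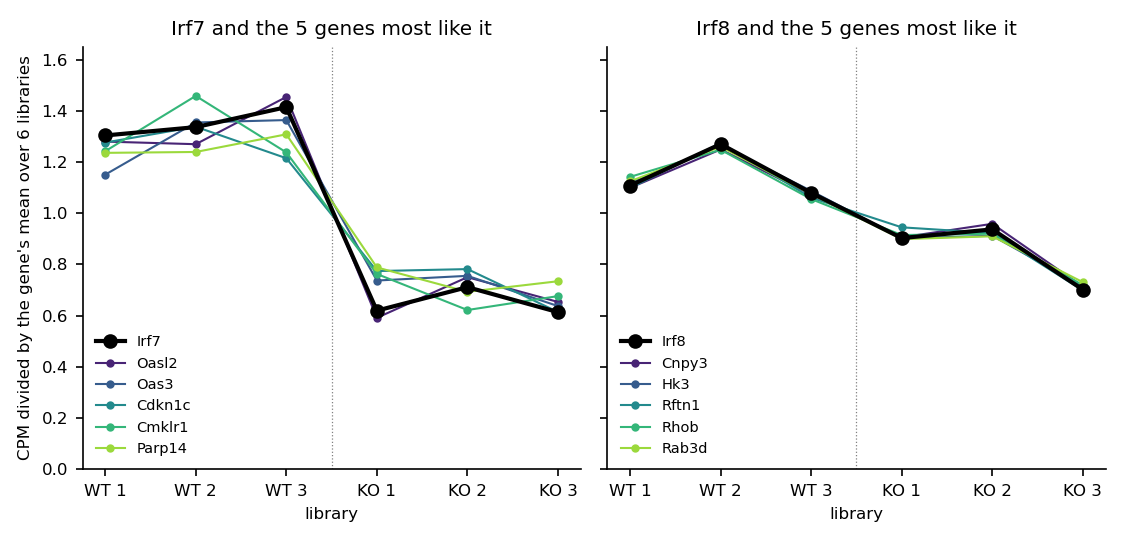
CPM of *Irf7* (left) and *Irf8* (right) in each library, divided by the mean of the gene over the 6 libraries, with the 5 genes most like each (lines only join the points of a gene). *Irf7* and its nearest genes are lower in every KO library than in any WT library, while those around *Irf8* have their highest point in WT replicate 2 and their lowest in KO replicate 3.

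Cell types other than macrophages and OCPs can hold IRFs, so their markers were read in the same libraries. Of 6 tested markers of plasmacytoid dendritic cells, which are rich in *Irf7* and *Irf8*, 0 were lower and 0 were higher at an unadjusted p-value under 0.05, all 6 having a higher fitted level in KO. For 2 of the 6, all KO libraries lay above all WT libraries, beside 16.8% of all genes. *Siglech* lay between 1.31 and 2.95 CPM, *Klk1* was at 0 in every library, and the summed level of the 8 markers was 40.8 to 42.2 CPM in WT and 41.5 to 54.9 CPM in KO, most of it *Tcf4*. The summed level of 8 B cell markers was 35.6 to 39.8 CPM in WT and 39.1 to 43.2 CPM in KO. That of 8 conventional dendritic cell markers was 14.8 to 19.3 CPM in WT and 19.8 to 21.9 CPM in KO, that of 8 T or NK cell markers 1.91 to 2.52 and 2.49 to 3.16 CPM, and that of 8 stromal markers 17.6 to 24.6 and 13.7 to 20.3 CPM. At an unadjusted p-value under 0.05, 1 of 7 tested B cell markers and 1 of 7 conventional dendritic markers were higher and 0 lower. Of 5 tested stromal markers, 1 was lower and 0 higher (0 and 0 with the GC correction). The 1 tested T or NK cell marker was neither lower nor higher at this limit. Of 9 tested neutrophil markers, 6 were higher and 1 lower at an unadjusted p-value under 0.05 (7 and 0 with the GC correction). All KO libraries lay above all WT libraries for 6 of them and below for 2, beside 16.8% and 18.9% of all genes. DESeq2 called 4 of the 8 with an adjusted p-value, *S100a8*, *S100a9*, *Ngp* and *Cxcr2*, beside 1.22% of all genes. The sum of all 10 markers was 1254 to 1414 CPM in WT and 1679 to 2021 CPM in KO. The defining surface marker *Ly6g* lay between 0 and 0.250 CPM. Of the 8 macrophage markers, 5 were lower and 0 higher (4 and 0 with the correction), with sums of 16482 to 17621 CPM in WT and 14848 to 17643 CPM in KO. Of the 8 osteoclast precursor markers, 5 were higher and 0 lower (6 and 0 with the correction), with sums of 5020 to 5443 CPM in WT and 6775 to 7158 CPM in KO. Over all genes 13.0% were higher and 13.2% lower, or 12.0% and 13.8% with the correction. All 8 osteoclast precursor markers also stand in the list of osteoclast factors and targets, and the macrophage markers *Csf1r*, *Adgre1* and *Itgam* in that of PU.1 and IRF8 partners, so these are not separate readings. The part of these marker values in the levels of *Irf7*, *Irf8* and the other members was not tested.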

How the data were processed

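RNA from 3 WT and 3 KO cultures was sequenced after a stranded mRNA library preparation. The authors deposited 1 table that holds an estimated count for each gene, not normalized and partly not whole. The submitters' processing notes name fastp, HISAT2, StringTie, RSEM and GRCm39, without versions or roles. The authors' means per genotype, 2 columns, were not used, and the paper names no test across genes.

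Libraries were grouped by the genotype in their titles. The deposited estimated counts were rounded to whole numbers, kept by filterByExpr with genotype as group (13428 genes), scaled by TMM and compared with edgeR 4.0.16 (R 4.3.3; glmQLFit with legacy = FALSE, glmQLFTest, no covariate), with p-values adjusted by the Benjamini-Hochberg method over all genes tested. The standard error of a log2 fold change is its size divided by the square root of F. The limits of a call were 0.01 for the adjusted p and 1.3 for the fold change (0.379 on the log2 scale). The common biological coefficient of variation was 0.142. Scripts were tested on simulated data.

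The members and the gene lists were chosen with earlier results of these data known. Named genes were the 9 members, in each list up to 3 genes with the smallest p-value, all ligand genes with a count, and the 5 genes most like *Irf7* and *Irf8*. *Parp9*, *Slc11a1* and *Nfatc1*, genes listed as called by DESeq2, and cell type markers quoted singly were named after their values were seen. All 182 list entries were found in the table. Lists exclude the members. Some list genes are not reported here by name.

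Alternatives were DESeq2 1.42.0 and its size factors, library size alone, limma-voom (limma 3.58.1), edgeR's legacy test, no filter, a minimum of 10 counts in each library, other limits, the replicate block, each library left out, and a GC correction. The correction is a spline (5 degrees of freedom) of each library's deviation from the mean log2 CPM on transcript GC content that enters as offsets (98.1% of the genes tested have a value). Length, GC content, positions and overlaps come from GENCODE M21 on GRCm38, where 51884 identifiers of the table have a transcript. No coordinate was converted between builds. Depth gives a floor of 3 counts, and floors cover counting error only. All pairs of libraries of a genotype differed by more than sampling noise (chi-square per degree of freedom of 3.58 or more).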

Additional observations from a re-analysis of the deposited data

How the results depend on the processing

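With the replicate block, 1 gene passed the limits, as without it, and also 1 with block and GC correction, and no member changed direction under the block alone. Same-numbered WT and KO libraries deviated from their group means with correlations of -0.215, 0.0766 and 0.166 across genes. These deviations were not corrected for GC content, so the correlations cannot show whether the numbers pair the libraries. Past the limits there was 1 gene, *Dtx3l*, lower in KO, and 0 higher. DESeq2's Wald test called 126 (54 higher, 72 lower) and the GC correction 3 (*Dcstamp* higher, *Parp14* and *Dtx3l* lower). Leaving out 1 library gave 0 to 2 genes, all lower, with 0 without WT replicate 2, WT replicate 3 or KO replicate 2, and 2 without KO replicate 1, *Dtx3l* and the pseudogene *Pgam1-ps2*, named after its values were seen. Fewer libraries entered these fits, and the cause of the other counts was not tested. The other alternatives each gave 1.

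Of the alternative values of the members' log2 fold changes, 131 stayed within the spread between replicates, 8 moved further and 5 reversed. *Irf1* turned to 0.0057 with the GC correction, 0.012 with block and GC correction and 0.030 without WT replicate 2 (-0.20 to 0.030 over the libraries left out). *Irf3* turned to 0.12 with the GC correction and 0.12 with block and GC correction. The values that moved were those of *Irf2*, *Irf5*, *Irf7* and *Irf2bp2* under the GC correction, with or without the block. The median of ISGF3 targets lay between -0.36 and -0.28 in all 16 alternatives. That of IRF4-linked genes lay between -0.041 (without WT replicate 1) and 0.23 with a library left out. Over the 7 lists besides the ISGF3 targets, 105 medians stayed within the spread, 6 moved, all of IRF5-linked genes, and 1 reversed, that of IRF4-linked genes, and the cause was not tested. *Irf4*, with 46 to 77 counts, and the ligands are limited by depth.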
